A study of Populus ussuriensis with 20 samples.

Results

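The comparison described here is between PuHox52-overexpressing and wild-type poplar stem bases at 48 h after cutting. Its members were chosen by label and are 4 of the 20 libraries of the series, 2 of wild type (WT) and 2 of plants carrying PuHox52 behind the 35S promoter (OE). The plants were in vitro Populus ussuriensis, and RNA came from the basal 0.5 cm of stem cuttings kept on rooting medium. Their age is given as 2 weeks in the series text and as 4 weeks in the growth protocol, and the 2 were not reconciled. The light cycle was 16 h light and 8 h dark. Per the labels, each library pooled 40 cuttings. The other 16 libraries cover both genotypes at 6, 12, 24 and 96 h. No group was left uncut, so both genotypes had been wounded for the same time. The labels do not give the number of transgenic lines behind the OE cuttings, so an effect of the transgene and of a line cannot be told apart. They call the samples biological replicates without saying whether the cuttings came from separate plants. The p-values below therefore set differences against the spread between replicate libraries, taken over all 20 libraries, and not against a known spread between plants.

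Adventitious roots are roots that arise from stems or leaves, and a cut stem forms them near its base, where auxin collects and cells close to the vascular tissue begin to divide. Homeodomain-leucine zipper proteins, the plant-specific family to which PuHox52 belongs, are transcription factors that bind DNA as dimers. The 35S promoter of cauliflower mosaic virus is active in most plant tissues, so the transgene is not tied to the rooting zone. The files do not pair gene IDs with names or products. No ID could be tied to PuHox52, to a pathway or to a marker of a stem cell type, so neither the transgene nor the tissue label could be checked against its genes, and few IDs are printed. In bulk tissue, fewer cells of a type and less RNA per cell cannot be told apart.

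The 4 libraries at 48 h held 13690927 and 17332726 counts in WT and 18740972 and 16447911 in OE. Counts were present at 28765 to 29126 of 39538 gene models per library. Levels are given as CPM, counts scaled to library size with TMM factors (trimmed mean of M values). Called genes are those with an adjusted p (Benjamini-Hochberg) under 0.05 in edgeR's quasi-likelihood test. That test was fitted over all 20 libraries and 26391 genes, and each SE is of a log2 fold change.

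At 48 h few genes were called different between the genotypes. Of the 26391 genes tested, 3 were called higher and 9 lower in OE, together 0.0455% (0.0114% higher and 0.0341% lower). Without adjustment, 910 genes (3.45%) had p under 0.05, of which 516 were higher (1.96% of those tested). That share is below the one that a threshold of 0.05 passes without any difference. At 6, 12, 24 and 96 h the unadjusted numbers were 3348, 3094, 2955 and 3870. The same fit called 1.09% of genes at 6 h, 0.398% at 12 h, 0.739% at 24 h and 1.53% at 96 h. With the 4 libraries of each time alone, however, 12 h had fewer calls than 48 h (1 against 12). The lowest place of 48 h by number of calls thus depends on fitting all libraries together. Without a fit, the mean over the 4 OE-WT pairs of the median log2 CPM difference was also lowest at 48 h. It was 0.159 there and 0.196 to 0.221 at the other times. The median log2 fold change over all genes at 48 h was -0.00238 and its median size 0.108, compared with sizes of 0.154 to 0.172 at the other times.

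The median difference between genotypes at 48 h was no larger than that between replicates. The median size of the log2 CPM difference was 0.144 between the WT libraries and 0.176 between the OE libraries. Each OE library set against each WT library gave 0.151 to 0.173, which lies inside that range. At 12 and 24 h too the mean over the 4 pairs across genotypes (0.199 and 0.201) lay inside the range of the replicates (0.181 and 0.2 at 12 h, 0.17 and 0.202 at 24 h). At 6 h that mean was 0.221, with replicates at 0.179 and 0.218. At 96 h the replicates differed by 0.149 and 0.15, and every one of the 4 pairs across genotypes differed by more (0.17 to 0.217). Among the 23366 genes with a mean of at least 1 CPM at 48 h, 299 differed at least 2-fold between the WT libraries and 430 between the OE libraries. Between genotypes, single pairs of libraries gave 341 to 455 such genes, the highest above both replicate pairs. A principal component analysis of the 4 libraries gave components of 37.5, 33.6 and 28.9% of the variance, none of them dominant. On the first, WT stood at -26.9 and 2.81 and OE at -16.5 and 40.6, so the genotypes overlapped. On the second they did not, with WT at -22.4 and -18.8 and OE at 38.9 and 2.29. With 2 libraries a group, a lack of overlap on 1 component can arise without any genotype difference. Replicates still differed by more than sampling noise, with a chi-square per degree of freedom of 4.51 in WT and 10.8 in OE.

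**Figure D1:**
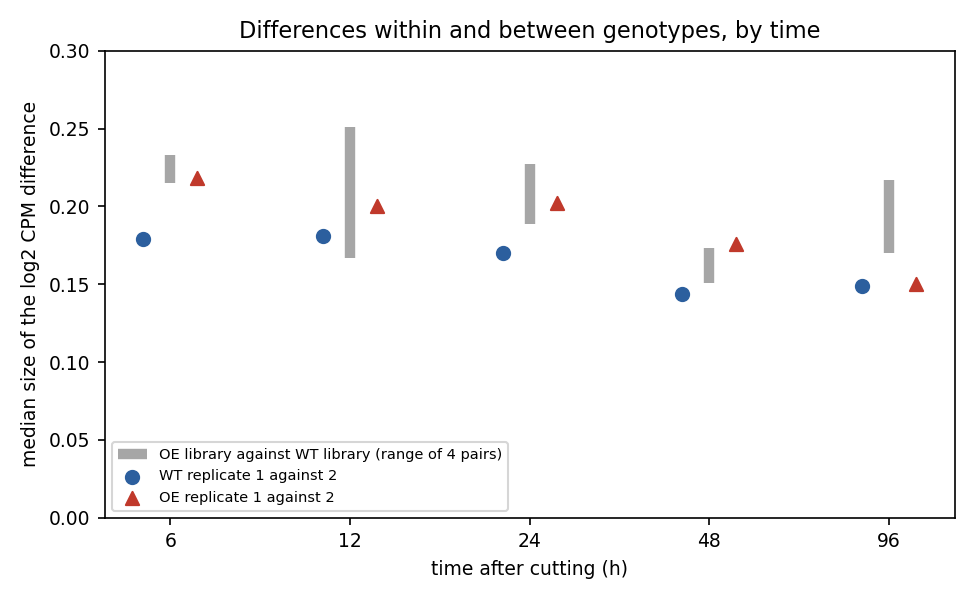
Median size of the log2 CPM difference over 26391 genes (y axis) at each time after cutting (x axis), between the replicates of a genotype (points) and over the 4 OE-WT pairs of libraries (bars from lowest to highest). At 48 h the bar, 0.151 to 0.173, lies between the WT replicates at 0.144 and the OE replicates at 0.176, while at 96 h it lies above both replicate values.

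Large differences became rarer as the level rose. Of all tested genes, 729 (2.76%) differed at least 2-fold in either direction, but 585 of them had a mean under 1 CPM, where 19.3% of 3025 genes passed that size and the median SE was 0.654. From 1 to 10 CPM the share was 1.44% of 8356 genes, from 10 to 100 CPM 0.176% of 13064, and from 100 to 1000 CPM 1 gene of 1900. At 10 to 100 CPM, which held 49.5% of tested genes, the median SE was 0.131 and the central 90% of log2 fold changes ran from -0.215 to 0.227. That bin held 9 of the 12 called genes. Above 1000 CPM, all 46 genes lay between -0.174 and 0.291, and none was called.

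Over all genes the directions were near equal, which the scaling of the libraries sets in large part. In 4099 genes both OE libraries lay above both WT libraries (15.5%) and in 4234 genes below (16%), together 31.6%, where the other times had 38.6 to 49.9%. With 2 libraries a group, a share near 31.6% can arise without any genotype difference. These are therefore not counts of genotype differences. With median-of-ratios scaling the counts were 4146 above and 4090 below. Of the 23366 genes with at least 1 CPM, 0.616% differed 2-fold or more, 93 upward and 51 downward, so at this size more genes were higher. The libraries did not overlap in 76 and 46 of them, which a choice by size favours. No gene had at least 10 counts in each library of one genotype and 0 in both of the other. At 5 counts there was 1 such gene in OE, with 10 counts in all, and 0 in WT.

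**Figure D2:**
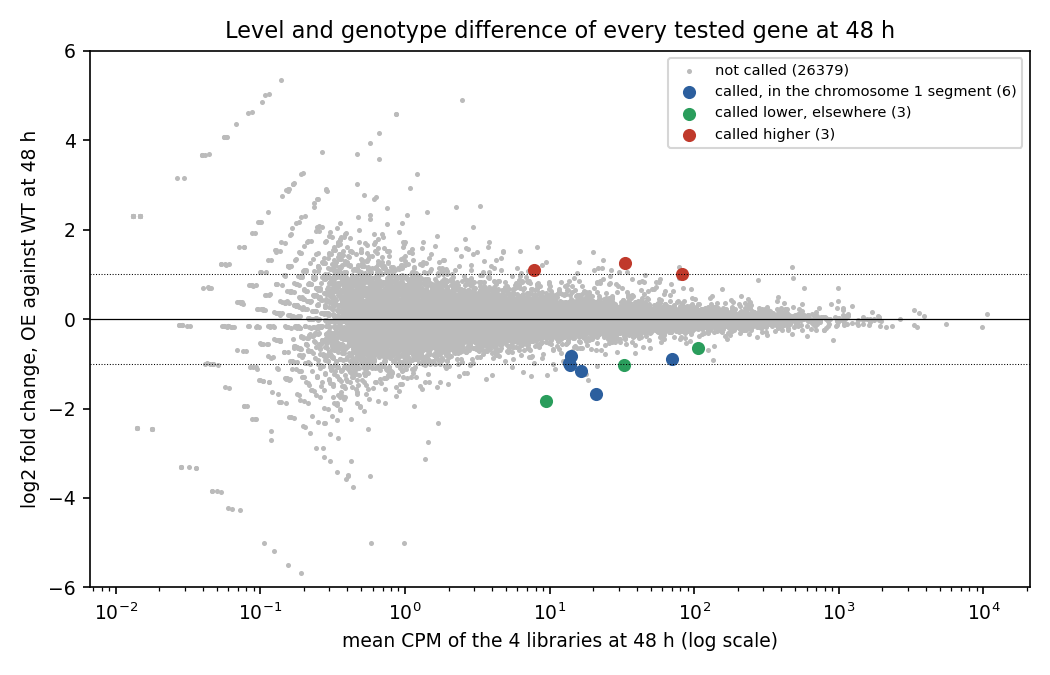
Log2 fold change of OE against WT at 48 h (y axis) by the mean CPM of the 4 libraries (x axis, log scale) for every tested gene with a mean above 0, with the 12 called genes in colour and dotted lines at 2-fold. The cloud narrows as level rises, and the called genes lie at its edges.

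None of the 6 most abundant transcripts was called. Potri.013G101000.v3.0 (chromosome 13, 11347121 to 11349338) stood at 9820 and 10500 CPM in WT and 11700 and 10400 in OE. Potri.006G085200.v3.0 (chromosome 6, 6441806 to 6446677) stood at 9870 and 11000 CPM in WT and 9450 and 9040 in OE. In the first gene the genotypes overlapped, and in the second both OE libraries lay below WT by less than 1 SE (log2 fold change -0.171, SE 0.204). Per length, the authors' deposited FPKM values were 8280 and 8850 in WT and 9930 and 8760 in OE for the first gene. For the second they were 10500 and 11300 in WT and 10000 and 9430 in OE, above the first in each library. The 6 genes had log2 fold changes of -0.173 to 0.135, each with an adjusted p of 1 by edgeR, and took 3.75 to 3.89% of the counts of each library.

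Of the genes called lower, the strongest was Potri.015G003100.v3.0 (chromosome 15, 236720 to 239777, minus strand). It had 14.2 and 15.3 CPM in the WT libraries and 4.11 and 4.25 in OE, which do not overlap. The log2 fold change was -1.82 (SE 0.213, edgeR adjusted p 0.0032), or 3.54-fold lower. Its model overlaps the opposite-strand model Potri.015G003000.v3.0 by 163 bases, and that model had 447 and 629 counts in WT and 684 and 582 in OE, against 198 and 273 and 78 and 72 for the gene itself. The strand setting of the counting is not given, so how reads from the overlap were counted is not known.

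Another 2 genes called lower lay on chromosomes 2 and 7 and are named although the rule for named genes does not reach them, having been chosen after their values were seen. Potri.002G152500.v3.0 (chromosome 2, 11518715 to 11523751) stood at 44.5 and 42.7 CPM in WT and 22.1 and 20.9 in OE, 2.02-fold lower. Potri.007G032500.v3.0 (chromosome 7, 2460125 to 2466578) stood at 133 and 124 CPM in WT and 85.9 and 78.6 in OE, 1.57-fold lower and the smallest called change (log2 fold change -0.647, SE 0.101). Replicates of both genes agreed closely beside the gap between the genotypes. The adjusted p by edgeR were 0.00401 and 0.0275.

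The remaining 6 genes called lower were neighbours on chromosome 1. Potri.001G459700.v3.0 (49360630 to 49366179, minus strand) was the strongest, at 33.9 and 30.5 CPM in WT and 12 and 7.96 in OE (log2 fold change -1.69, SE 0.215, edgeR adjusted p 0.00401). It was 3.22-fold lower, and an overlapping model on the other strand had 0 counts in all 4 libraries. The other 5 had log2 fold changes from -1.15 to -0.829, that is 1.78 to 2.22-fold lower, and in each of them both OE libraries lay below both WT libraries.

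**Figure D3:**
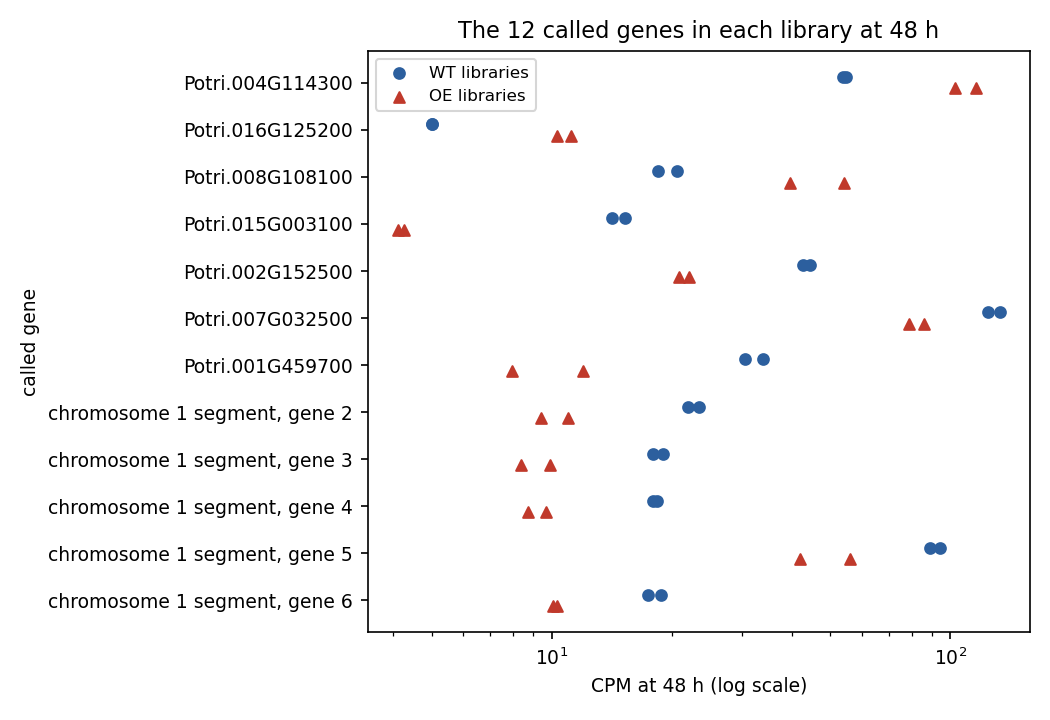
CPM at 48 h (x axis, log scale) of the 12 called genes (y axis) in each WT library (circles) and OE library (triangles). The 3 called higher come first, then the 3 called lower elsewhere, then the 6 of the chromosome 1 segment in order of their change. In every gene the 2 genotypes lie apart.

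Because earlier results of these data had shown differences in runs of neighbouring genes, such runs were sought in the other 4 times alone, from an 11-gene running median of at least 0.5 in size, and then described at 48 h. The run on chromosome 1 spanned 49340280 to 49642181 and 23 tested genes, whose median log2 fold change was -0.94 over the other times. At 48 h the median was -0.845 (quartiles -1.07 and -0.42), 1.8-fold lower. Relative to the WT mean, the WT libraries had medians of 0.0178 and -0.0178 and the OE libraries -0.811 and -0.991. In this run 19 of 23 genes were below 0, and in 16 (69.6%) both OE libraries lay below both WT libraries, compared with 16% of all genes. The 4 genes above 0 had mean levels of 0.213 to 3.39 CPM. Within this run the lower genes lay together. The libraries of all 16 genes from 49355583 to 49515163 did not overlap, whereas those of the run's 5 genes after them did. A window of 21 genes gave a run from 49330712 to 49657019 with 25 genes, 18 of them lower without overlap. The edges of the run thus depended on the window.

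The rule found 2 further runs, on chromosome 11 (17584930 to 17911297, 9 genes) and chromosome 17 (3802230 to 3944702, 6 genes), which did not look the same at 48 h. Their medians were -0.765 and -1.11 over the other times and 0.926 and -0.0149 at 48 h. Only 2 and 3 of their genes reached 1 CPM, and on chromosome 11 the OE libraries differed from each other (1.16 and 0.0543). Neither held a called gene. With a window of 21 genes only the chromosome 1 run was found. With a window of 7 genes there were 5 runs, these 3 with somewhat different bounds on chromosomes 11 and 17 and 2 of 5 genes each. The latter lay on chromosome 1 (27770718 to 27832473) and chromosome 7 (13567801 to 13599455), with medians of -0.208 and -0.0299 at 48 h.

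Chromosome 13 had the median farthest from 0 of the 19 chromosomes at 48 h. Its 1026 tested genes had a median log2 fold change of 0.049, against -0.0171 to 0.0057 on the other 18 chromosomes. The shift lay in the first 2.3 Mb, a bound taken from earlier results of these data and not found by the rule for runs. Whether the 48 h libraries entered that choice is not known here. The shares below therefore describe the region and are not independent support for it. The 240 tested genes there had a median of 0.252 (quartiles 0.146 and 0.351), a 1.19-fold difference, with OE libraries at 0.24 and 0.256 relative to WT libraries at 0.0146 and -0.0146. Of these genes, 220 (91.7%) were above 0, compared with 49.2% of all genes. Both OE libraries lay above both WT libraries in 152 of them (63.3%, against 15.5% of all genes) and below in 6. Without adjustment 62 genes (25.8%, against 3.45%) passed 0.05, each of them higher, but none was called. The 786 genes of the rest of the chromosome had a median of 0.0024, and 14.8% of them had OE libraries above WT. The medians of the 2.3 Mb at 6, 12, 24 and 96 h were 0.259, 0.122, 0.164 and 0.211.

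**Figure D4:**
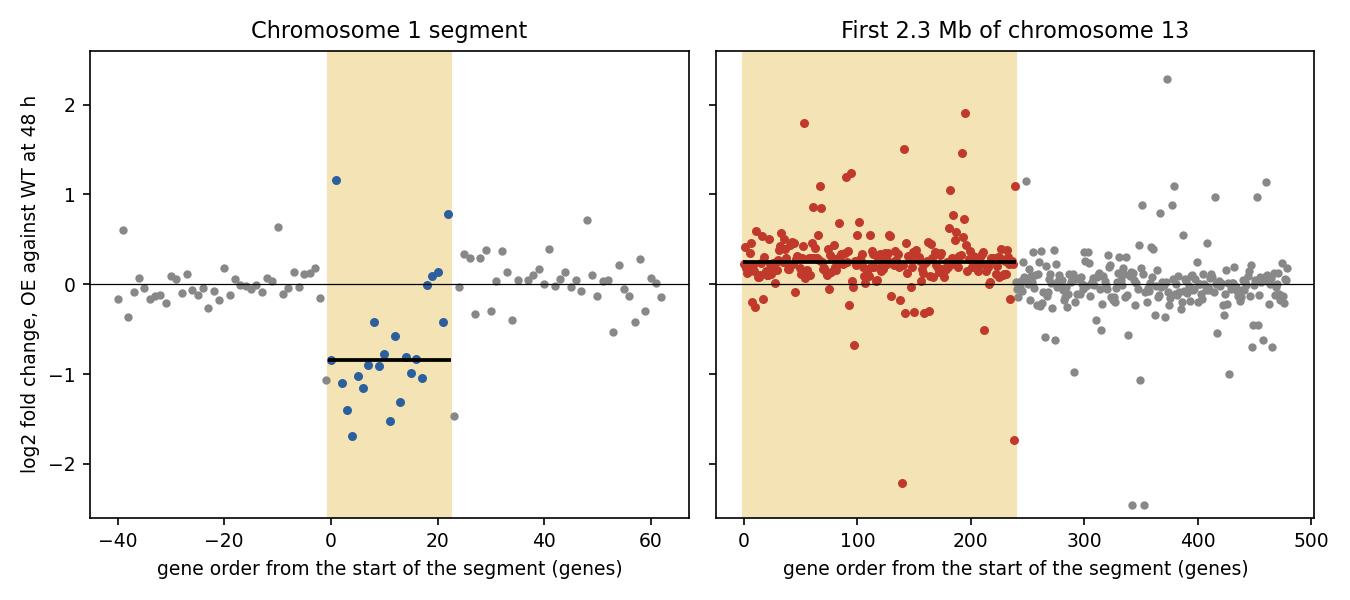
Log2 fold change of OE against WT at 48 h (y axis) for tested genes in chromosomal order (x axis, in genes from the start of the segment), with the segment shaded and its median as a black line (-0.845 on chromosome 1, 0.252 on chromosome 13). Neighbouring genes are grey and scatter around 0, though the nearest on either side of the chromosome 1 segment were below 0. Outside the y axis falls 1 grey gene beside the chromosome 1 segment.

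The 3 genes called higher were scattered, and all of them were about 2-fold higher. Potri.004G114300.v3.0 (chromosome 4, 10353064 to 10361362) had 53.7 and 54.6 CPM in WT and 116 and 103 in OE (log2 fold change 1.01, SE 0.119, edgeR adjusted p 0.0032). Potri.008G108100.v3.0 (chromosome 8, 6879163 to 6884798) had 20.6 and 18.5 CPM in WT and 54.1 and 39.5 in OE (1.26, SE 0.2, adjusted p 0.0288). Potri.016G125200.v3.0 (chromosome 16, 12828404 to 12830547) had 5.02 and 5 CPM in WT and 11.2 and 10.3 in OE (1.1, SE 0.185, adjusted p 0.0473), from 70 and 89 counts in WT and 212 and 174 in OE. The genotypes did not overlap in any of the 3. The first of these genes is named because it completes a count of 3, having been chosen after its values were seen.

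Calls depended on every library of the comparison. Of the 12 genes, 1 was still called when WT 48 h replicate 1 was left out and 0 when replicate 2 was. Leaving out OE 48 h replicate 1 kept 2 of them, and leaving out its replicate 2 kept 4. Such fits assume that the lone library varies like the other groups. The total of calls was then 2, 0, 2 and 5, and without WT 24 h replicate 2 it was 7. In the fit with 0 calls, 848 genes had an unadjusted p under 0.05 by edgeR. A fit of just the 4 libraries called 12 genes, 5 of them the same. Tested against a log2 fold change of 1, 0 genes were called by glmTreat, with 80 at an unadjusted p under 0.05. DESeq2 called 43 genes, 28 of them higher in OE, and all 12 were among them. Of 25 alternatives without that threshold, Potri.016G125200.v3.0 lost its call in 21 (adjusted p up to 0.764), including median-of-ratios scaling (0.0508). Potri.008G108100.v3.0 lost its call in 8, Potri.007G032500.v3.0 in 7, Potri.002G152500.v3.0 in 4, Potri.004G114300.v3.0 and Potri.001G459700.v3.0 in 3 each and Potri.015G003100.v3.0 in 2 (0.0639 when WT 48 h replicate 2 was dropped and 0.0723 when OE 48 h replicate 1 was). Of the other 5 genes of the chromosome 1 run, 1 lost its call in 13 alternatives, 2 in 5 each and 2 in 4 each. None of the 12 changed direction in these alternatives.

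At the other times the genes called lower and those called higher at 48 h behaved differently. Libraries of those times hardly moved the log2 fold changes of these genes at 48 h, but they enter the spread behind the calls. For example, leaving out WT 24 h replicate 2 took Potri.007G032500.v3.0 from -0.647 to -0.639. The 12 genes were thus chosen partly with the libraries of other times, and the calls at those times are not independent support. All 9 genes called lower at 48 h were below 0 at 6, 12, 24 and 96 h, and at each of those times both OE libraries lay below both WT libraries in all 9. Calls of lower expression were made for 9, 8, 9 and 9 of them, where 0.678, 0.193, 0.432 and 0.417% of all genes were called lower. The exception at 12 h was Potri.007G032500.v3.0 (log2 fold change -0.403, adjusted p 0.0915). Their changes at 48 h, from -1.82 to -0.647, differed from those at no other time by edgeR (smallest adjusted p 0.523). Potri.015G003100.v3.0 had log2 fold changes of -1.94, -2.14, -2.59, -1.82 and -1.2 at 6, 12, 24, 48 and 96 h. For Potri.001G459700.v3.0 they were -1.87, -1.89, -1.78, -1.69 and -1.63.

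The 3 genes called higher at 48 h were above 0 at 6 h and below 0 at 12, 24 and 96 h. Calls of higher expression were made for 1 of them at 6 h and 0 at the other 3 times, where 0.409, 0.205, 0.307 and 1.11% of all genes were called higher. For Potri.004G114300.v3.0 the log2 fold change was 0.98 at 6 h, -0.485 at 12 h, -0.181 at 24 h and -0.0678 at 96 h. In WT it stood at 121 and 113 CPM at 12 h and 64.2 and 61.4 at 24 h, and in OE at 86.5 and 80.6 and at 53.2 and 57.6. Its difference at 48 h was thus larger than at 12 h by 1.5 on the log2 scale (edgeR adjusted p 0.00298, under 0.05 in all 24 alternatives without a fold threshold), than at 24 h by 1.19 (0.0136) and than at 96 h by 1.08 (0.0268). Against 24 h the adjusted p exceeded 0.05 without replicate 1 of WT or OE at 24 or 48 h (up to 0.0773). Against 96 h it did so without either WT 48 h library, OE 48 h replicate 1, WT 96 h replicate 2 or OE 96 h replicate 2 (up to 0.202).

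Potri.016G125200.v3.0 was called in opposite directions. At 24 h it had 7.39 and 8 CPM in WT and 3.68 and 3.94 in OE (log2 fold change -1.02, edgeR adjusted p 0.0263). At 96 h it had 16.2 and 18.3 in WT and 7.64 and 11 in OE (-0.874, 0.0185). At 48 h the order was turned, and WT was lower than OE. The difference at 48 h exceeded that at 24 h by 2.11 (adjusted p 0.00651, under 0.05 in all 24 alternatives) and that at 96 h by 1.97 (0.00969). The latter was lost without either WT 48 h library, OE 48 h replicate 1 or WT 96 h replicate 2 (up to 0.152). At 6 h it stood at 0.195 and 0.0781 CPM in WT and 0.612 and 0.659 in OE. Potri.008G108100.v3.0 exceeded its difference at 12 h by 1.73 (0.0398, lost in 10 of 24 alternatives) and that at 24 h by 1.52 (0.0491, lost in 19).

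**Figure D5:**
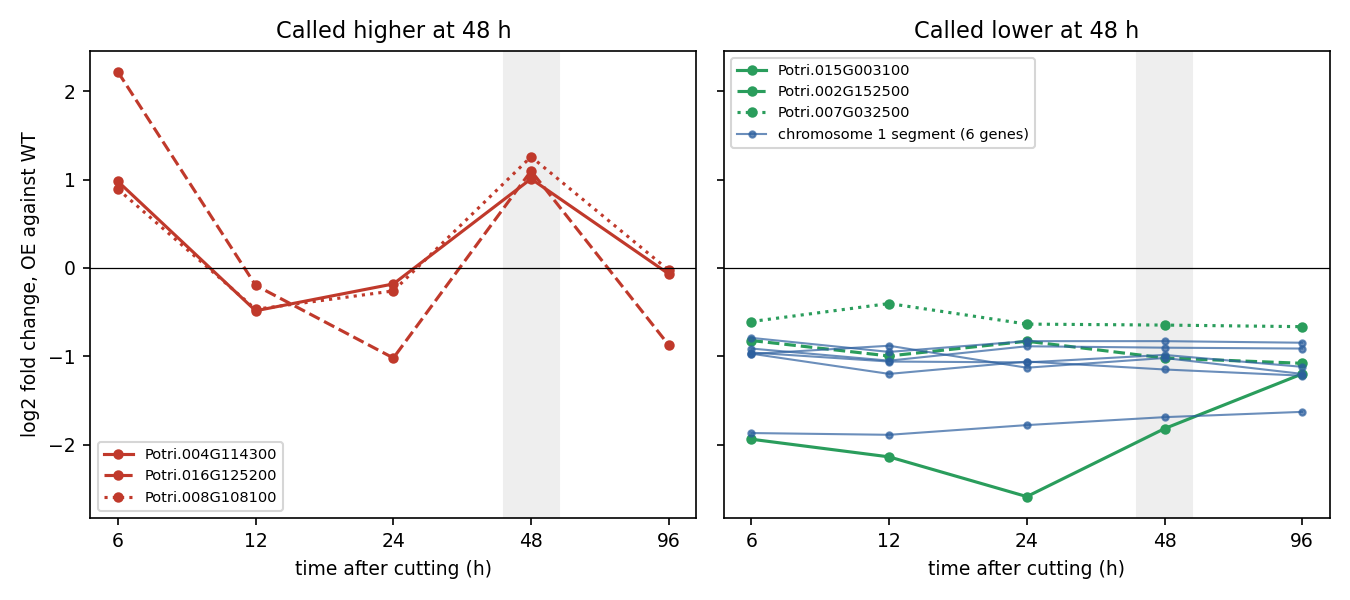
Log2 fold change of OE against WT (y axis) at each time after cutting (x axis, not to scale) for the 3 genes called higher at 48 h (left) and the 9 called lower (right), with 48 h shaded. The 9 lower genes stay below 0 at every time, from -2.59 to -0.403, and the 3 higher genes are above 0 at 6 and 48 h and below 0 at 12, 24 and 96 h.

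The genes with an unadjusted p under 0.05 at 48 h leaned the same way at 6 h. Of the 910, 70% had the same sign at 6 h, compared with 55.2% of all tested genes. At 12, 24 and 96 h the share was 43.4, 48.2 and 53.1%, compared with 45.8, 50.2 and 50% of all genes. Of the 516 higher genes, 71.1, 35.5, 46.5 and 60.5% were higher at 6, 12, 24 and 96 h. Of the 394 lower genes, 68.5, 53.8, 50.5 and 43.4% were lower at those times. These shares count genes, which are not independent replicates. Such a lean covers the chromosome 13 genes too, which were higher at each time.

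The difference at 48 h was also tested against that at the other times. Against the mean of the other 4 times edgeR called 0 genes, with 1398 at an unadjusted p under 0.05, while DESeq2 called 38. The smallest adjusted p was 0.058, that of Potri.004G114300.v3.0. Against 6 h edgeR called 0 genes, with 1614 at an unadjusted p under 0.05 and 60 called by DESeq2. Against 12, 24 and 96 h it called 22 (0.0834%), 40 (0.152%) and 18 (0.0682%), where DESeq2 called 137, 184 and 128. In 18, 34 and 14 of the genes called by edgeR the difference was smaller in size at 48 h, and in 21, 38 and 14 its sign was opposite. Median sizes were 0.499, 0.378 and 0.39 at 48 h and 0.985, 1.34 and 1.53 at the other time. These genes were chosen for a departure between the times, so opposite signs and unequal sizes follow in part from that choice. At the other time 16, 33 and 15 of them were called. The called genes of the 48 h comparison among them were the 3 higher ones, with 2 at 12 h, 3 at 24 h and 2 at 96 h. All these comparisons share the 48 h libraries.

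These 3 counts rested on single libraries. The 22 genes became 1 to 14 or 41 to 190 when 1 library was left out, except without either WT library at 6 h, WT 24 h replicate 1 or OE 24 h replicate 2. The highest was without WT 12 h replicate 2. The 40 became 5 to 14 without any library at 24 or 48 h, or any WT library at 6 or 96 h. The 18 became 39 if either OE 6 h library was dropped and 33 if WT 96 h replicate 1 was. They became 10 or 11 without WT 24 h replicates 1 or 2, OE 24 h replicate 1 or OE 96 h replicate 1. They became 0 or 1 without WT 48 h replicates 1 or 2, OE 48 h replicate 1, WT 96 h replicate 2 or OE 96 h replicate 2.

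Some large differences were not called. Potri.014G103000.v3.0 (chromosome 14, 8085842 to 8087890), singled out after its values were seen because it was called higher in OE at each of the other 4 times, had 334 and 250 CPM in WT and 477 and 828 in OE at 48 h. The genotypes did not overlap, but the OE libraries differed from each other. The log2 fold change was 1.16 (SE 0.247, edgeR adjusted p 0.236), compared with 1.77, 2.89, 2.05 and 2.75 at 6, 12, 24 and 96 h. It was called by DESeq2 (0.00138) and with no filter on low counts (0.0206). Its difference at 48 h was lower than the mean of the others by 1.2 on the log2 scale, which did not pass the adjustment (0.311).

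The largest uncalled differences without overlap of the libraries, sought among genes averaging 1 or more in log2 CPM over the series, rested on few counts at 48 h. Potri.008G173300.v3.0 had 1 and 67 counts in WT and 1 and 1 in OE (log2 fold change -5.01, SE 1.31, edgeR adjusted p 0.601), so a single WT library made the difference. Without WT 48 h replicate 1 its adjusted p was 0.0469. Potri.008G152000.v3.0 had 2 and 15 counts in WT and 1 and 1 in OE. In the other direction, Potri.001G176600.v3.0 had 10 and 4 counts in WT and 38 and 47 in OE (2.39, SE 0.618, adjusted p 0.589). Potri.006G089800.v3.0 had 0 and 1 counts in WT and 2 and 4 in OE. DESeq2 called Potri.008G173300.v3.0 and Potri.001G176600.v3.0, each with an adjusted p of 0.0498.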

How the data were processed

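RNA sequencing of 20 libraries in 10 groups was deposited as 1 table per library over 39538 gene models. The Count column holds whole-number counts deposited by the authors, the FPKM column values scaled by the authors per length and depth, and the Normalized column a signal scaled by the authors. TopHat2 2.1.1 and HTSeq 0.6.0 are named, without role, per the submitters' processing notes. The build, the annotation release and whether counting used strand were "not given in the sources used here". Positions are printed as the authors' tables list them. The counts were tested; the FPKM column gave 1 ordering by length and the signal was not used.

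Genes were filtered with filterByExpr, which kept 26391. Groups were taken from the labels, whose samples carry no replicate numbers, so replicate numbers only name libraries. R 4.3.3 with edgeR 4.0.16 fitted 1 group-means model to all libraries (TMM scaling, quasi-likelihood test, 10 residual degrees of freedom, biological coefficient of variation 0.115). Contrasts were OE against WT at each time, and the 48 h difference against that at each other time and their mean. SE is the size of the log2 fold change divided by the square root of F. DESeq2 1.42.0, other scaling, no filter, thinning to 10399262 counts, glmTreat, the 4 libraries of a time alone and leaving out each library were alternatives; those named for other times and for sizes and segments beyond the plan were chosen after seeing the data. The edgeR step was tested on simulated data. Total counts over the series were 10399262 to 27472303. The comparison, the regions and the lists were chosen with earlier results of these data known. Named genes were to be all called genes, the largest uncalled and the most abundant, limited to 2 IDs per direction and comparison because IDs have no names here; exceptions are marked. Gene lists by product and cell type markers could not be formed, and no sequence was available to print.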

Additional observations from a re-analysis of the deposited data

Results flagged for a closer look

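Tests of the difference between times gave 22 genes whose OE minus WT difference at 48 h was unlike that at 12 h, 40 unlike that at 24 h and 18 unlike that at 96 h (edgeR, Benjamini-Hochberg adjusted). Each of the 3 genes called higher at 48 h was among them. For Potri.004G114300.v3.0 the adjusted p were 0.00298 against 12 h, 0.0136 against 24 h and 0.0268 against 96 h. For Potri.008G108100.v3.0 they were 0.0398 against 12 h and 0.0491 against 24 h. For Potri.016G125200.v3.0 they were 0.00651 against 24 h and 0.00969 against 96 h. These tests share the 48 h libraries. Groups of 2 libraries are too small for a search for outlying samples.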

How the results depend on the processing

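Counts of called genes are given in the order OE against WT at 6, 12, 24, 48 and 96 h. DESeq2 gave 508, 398, 378, 43 and 606. Without the filter on low counts, 12, 24, 48 and 96 h had 390, 377, 32 and 658. glmTreat gave 1, 2, 3, 0 and 10. The libraries of a time alone gave 24, 1 and 762 at 6, 12 and 96 h. Differences at 48 h from those at the mean of other times, 6, 12, 24 and 96 h numbered 38, 60, 137, 184 and 128 with DESeq2 and 13, 25, 116, 162 and 90 without the filter. Against 12, 24 and 96 h they numbered 0 with glmTreat. With thinned counts there was 1 against 6 h and 2 against 12 h. Genes at least 2-fold numbered 3374 without the filter, 283 with the 4 libraries alone and 144 at 1 CPM or more, and the median size was 0.123 without the filter and 0.0955 at 1 CPM or more. Leaving out 1 library gave 0 to 14 calls at 48 h, 28 to 332 at 6 h, 13 to 397 at 12 h, 18 to 222 at 24 h and 23 to 498 at 96 h. It gave 0 to 3 differences from the mean of other times, 0 to 37 from 6 h, 1 to 190 from 12 h, 5 to 50 from 24 h and 0 to 39 from 96 h. It gave median sizes of 0.127 to 0.151 and 1281 to 1392 genes at least 2-fold, and segment medians of -1.06 to -0.81 on chromosome 1 and 0.243 to 0.278 on chromosome 13. The cause was not tested. Of the named genes, 17 were recomputed (not the abundant pair), and neither these nor the chromosome 1 and 13 segments reversed. No paired analysis was possible because the labels give no replicate numbers. Precision was lowest under 1 CPM, where the median SE was 0.654.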
